A study of Mus musculus with 22 samples.

Results

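Motile cilia and intraflagellar transport genes were followed through RNA of the mouse choroid plexus (ChP). The 95 genes were taken by symbol, as protein-coding genes whose names begin with Dnah, Dnai, Dnali, Cfap, Rsph, Tekt, Ift, Bbs, Drc or Spag (Dnah, Ift, Bbs and Drc with a number), out of 33984 genes with counts. They comprised 17 axonemal dynein subunits, 8 radial spoke proteins, 2 proteins of the nexin-dynein regulatory complex, 5 tektins, 29 cilia and flagella associated proteins (CFAPs), 12 sperm-associated antigens (SPAGs), 14 intraflagellar transport (IFT) proteins and 8 Bardet-Biedl (BBS) proteins. The rule reads only the symbol and the gene type, and no expression value enters it.

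The axoneme of a motile cilium is a ring of doublet microtubules around a central pair. Dynein arms slide the doublets, radial spokes and the nexin-dynein regulatory complex coordinate the arms, and tektins and other inner proteins line the inside of the doublet wall. IFT particles and the BBSome carry cargo along the axoneme and serve primary cilia as well as motile ones. Epithelial cells of the ChP, which secrete cerebrospinal fluid and express the homeoprotein gene Otx2, carry tufts of cilia on their apical surface.

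RNA was sequenced from 14 pools of mice, with 2 pools in each of 7 groups. In the conditional model, Otx2 lox/lox mice of the S129 strain received bilateral injections into the lateral ventricles at an age of 3 months, either of Cre-Tat, a cell-permeable Cre recombinase protein, or of vehicle, and ChP of the lateral ventricles (LV) and of the fourth ventricle (4V) was taken 15 days later. Pools labelled Cre-Tat held 5 mice and vehicle pools held 4, and both the Cre-Tat and the vehicle mice carried the floxed alleles. LV and 4V ChP were dissected from the same injected mice, so the 8 conditional pools of the 2 ventricles are not independent sets of animals, and whether LV and 4V pools of the same number held the same mice is not given in the sources used here. In the constitutive model, only 4V ChP was taken, from B6D2 mice labelled Otx2(+/-), from their wildtype littermates at 3 months, and from mice labelled Otx2(+/AA), for which neither age nor the nature of the allele is given in the sources used here. The Otx2(+/-) mice are constitutive heterozygotes that carry a GFP allele, Otx2+/GFP. Of the 16 files of the conditional model, 14 carried a library number of another sample than the one to which they were attached, and all were joined by library number. Both runs of a pool then differed by little more than counting noise (chi-square per degree of freedom 1.002 to 1.032), against 13.203 to 20.498 for the files as attached, and the attached order turned the direction of 4 of 7 genes called in LV ChP and 11 of 16 called in 4V ChP below.

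Pool totals were 22750019 to 50088408 counts. Whole-transcript counts of Otx2 did not follow the labels. Its level was 391 and 476 CPM (counts per 1000000 counts of the pool, scaled between pools with TMM factors) in vehicle LV pools and 1245 and 1016 CPM in pools labelled Cre-Tat, 383 and 392 against 1195 and 1211 CPM in 4V ChP, and 362 and 303 CPM in wildtype against 1034 and 884 CPM in Otx2(+/-) pools. The counts run over whole transcripts, so the exon removed by Cre, on whose reads the study judged the knockdown, was not counted on its own. These counts therefore do not check the deletion, and the directions below are those of the labels. The summed level of 8 markers of ChP epithelium, including Ttr, was 187200 and 195500 CPM in vehicle LV pools, 100200 and 138300 CPM with Cre-Tat, 173900 and 145200 CPM in vehicle 4V pools and 77140 and 64570 CPM with Cre-Tat. It was 155600 and 146000 CPM in wildtype, 83530 and 95780 CPM in Otx2(+/-) and 116500 and 121300 CPM in Otx2(+/AA) pools. In the study's own counts Ttr, a known direct target of OTX2, stands far above every other gene. These sums therefore follow mainly Ttr. Taken gene by gene, the median log2 fold change of the 8 markers was -0.65 in LV and -0.86 in 4V ChP with Cre-Tat. Against wildtype it was -0.405 in Otx2(+/-) and -0.087 in Otx2(+/AA) pools. The 6 macrophage markers summed to 55.1 and 62.5 CPM against 102 and 84.1 CPM in LV ChP, and to 44.3 and 44.2 CPM against 99.2 and 70.0 CPM in 4V ChP. For the 8 markers of ependyma, another multiciliated cell type, the sums overlapped between groups at 71.8 to 107 CPM in LV and 53.8 to 83.6 CPM in 4V ChP. They were 102.9 and 109.8 CPM in wildtype, 113.7 and 125.4 CPM in Otx2(+/-) and 105.4 and 116 CPM in Otx2(+/AA) pools. Of 7 tested, 1 was called higher in Otx2(+/-) against wildtype and 0 with Cre-Tat. Tmem212 and Ccdc153 did not exceed 0.484 and 3.002 CPM in any of the 14 pools, so other markers made up most of these sums. The share of ependyma was not tested.

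Most of the genes were expressed in ChP. Of the 95 genes, 87 had counts in all 14 pools, 88 passed the filter on low counts in at least 1 comparison, and 7 passed in none, among them Dnah17, Tekt3 and Spag6. Cfap97d1 and Spag11b had no count. Compared per kilobase of transcript over the 6 control pools (vehicle LV, vehicle 4V and wildtype), the highest mean level was that of Drc7, a subunit of the nexin-dynein regulatory complex, with 131 CPM per kilobase, and Drc3 of the same complex had 34.0. Among spoke proteins, Rsph9 had 115, Rsph1 44.0 and Rsph4a 31.6 CPM per kilobase. The leading CFAP genes were Cfap36 with 87.8, Cfap298 with 67.0 and Cfap126 with 62.2 CPM per kilobase.

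Levels fell off steeply within families. Tekt1 had 66.6 CPM per kilobase, while Tekt4 had 4.32 and Tekt5 0.731. The leading IFT genes were Ift20 with 49.7, Ift57 with 40.3 and Ift74 with 35.2 CPM per kilobase, and the leading BBS genes were Bbs4 with 15.2, Bbs5 with 14 and Bbs2 with 11.5. Among dynein subunits the leading levels were 19.2 CPM per kilobase for the inner arm light intermediate chain Dnali1, 13.2 for the inner arm heavy chain Dnah6 and 12.8 for the outer arm intermediate chain Dnaic2. The SPAG genes, a family named for sperm antigens rather than for a shared place in the cilium, were led by the central pair gene Spag6l with 32.2, Spag9 with 30.2 and Spag7 with 18.2 CPM per kilobase. Much of Cfap298 (56.57% of its transcript) overlaps genes on the opposite strand, so its level may include their reads if strand was not used in counting.

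**Figure D1:**
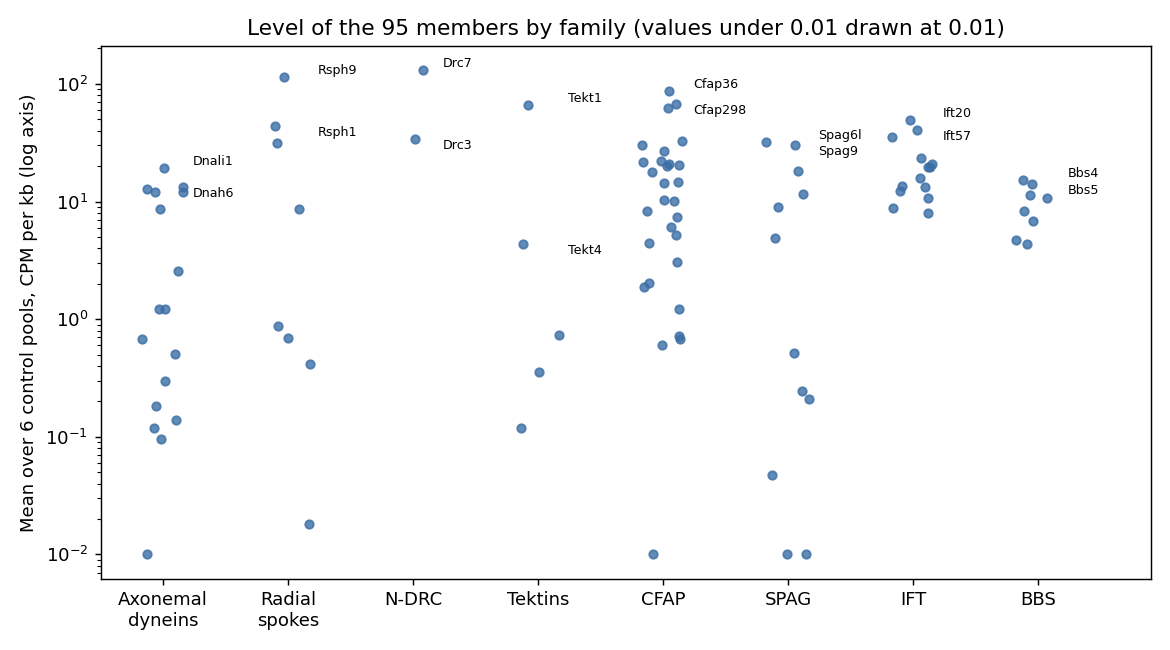
Mean level over the 6 control pools of each gene, in CPM per kilobase of transcript on a log axis, by family. Drc7 stands highest at 131 and Rsph9 next at 115, and among tektins Tekt1 at 66.6 stands far above Tekt5 at 0.731.

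The first question was how these genes differed between pools labelled Cre-Tat and vehicle pools. In LV ChP, 7 of 85 tested genes were higher with Cre-Tat, and 0 lower, at an adjusted p under 0.05 (edgeR quasi-likelihood test, Benjamini-Hochberg over all genes tested), which is 8.24%, beside 3.24% of all 15002 genes tested. In 4V ChP, 15 of 87 were higher and 1 was lower, which is 18.4%, beside 10.7% of all 14550 genes tested. Split by direction, 2.21% of all genes rose and 1.03% fell with Cre-Tat in LV ChP, and the corresponding 4V shares were 5.70% and 4.98%. With pools scaled by total counts, 396 of 444 genes called rose in LV and 1316 of 1742 in 4V ChP, and of the 95 genes 10 and 28 were called, all higher. The median log2 fold change of the tested genes was 0.212 in LV and 0.191 in 4V ChP, against 0.004 and 0.006 for all genes, and 64 of 85 and 66 of 87 lay above 0, against 50.7% of all genes in either ventricle. In bulk RNA, fewer cells of a type and less RNA per cell cannot be told apart, and the p-values measure only the spread between pools.

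All genes called belonged to the axonemal and other families, which had 7 of 63 tested higher in LV ChP and 16 of 65 called in 4V ChP (Drc7 as the 1 that fell), at median log2 fold changes of 0.361 and 0.366. Among the 22 IFT and BBS genes, 0 were called in either ventricle by edgeR or by DESeq2. With edgeR, 3.24% of all genes were called in LV and 10.7% in 4V ChP, and 0 of 22 is near the LV share. At an unadjusted p under 0.05 there was 1 of the 22 in each ventricle (Bbs10, lower). Of all genes, 2126 of 15002 in LV and 3234 of 14550 in 4V ChP reached that level. The medians of the 22 genes were 0.086 and 0.094. The LV count was 2 without vehicle pool 2 and 3 with counts summed over a gene's transcripts, and the 4V count was 28 when pools were scaled by total counts. Of the 8 epithelial markers 4 fell in LV and 8 in 4V ChP, and of the 6 macrophage markers 1 rose in LV and 4 in 4V ChP, and their part in these differences was not tested.

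Single calls rested on few pools. In LV ChP, Cfap46 alone passed whichever pool was left out. Without vehicle pool 2, Cfap53 also stayed past the threshold and the other 5 genes had log2 fold changes of 0.631 to 0.736 and edgeR adjusted p values of 0.155 to 0.326. Without vehicle pool 1, Cfap45, Cfap53, Rsph1 and Tekt4 missed it (0.701 to 0.912, edgeR adjusted p = 0.0574 to 0.232). Without Cre-Tat pool 2, Spag8 and Tekt4 missed it (edgeR adjusted p = 0.0738 and 0.0888), and without Cre-Tat pool 1 only Cfap53 did (edgeR adjusted p = 0.0755).

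In 4V ChP, Cfap161, Cfap45, Cfap46, Cfap53, Rsph4a and Tekt4 passed with any pool left out. Without Cre-Tat pool 1, Cfap97d2 and Spag8 missed the threshold (edgeR adjusted p = 0.0777 and 0.0729). Without Cre-Tat pool 2, Cfap126, Cfap221, Dnah11, Rsph10b and Spag8 missed it, at log2 fold changes of 0.354 to 0.894 and edgeR adjusted p values of 0.0618 to 0.231. Without vehicle pool 1, Cfap126, Dnah11, Drc3, Drc7, Rsph10b and Spag8 missed it (edgeR adjusted p = 0.059 to 0.203). Without vehicle pool 2, Cfap221, Cfap97d2, Dnah11, Dnaic2, Dnali1, Drc3 and Spag8 missed it (edgeR adjusted p = 0.0544 to 0.312). In each of these the fold change kept its direction.

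The genes called higher with Cre-Tat were shorter at the median than those tested. Their counted transcripts had a median of 1888 bases in LV and 2133 bases in 4V ChP, against 2874 and 2871 bases for the genes tested. In LV ChP, 5 of 26 genes under 2000 bases were called higher (19.2%, beside 2.22% of all genes of that length). Called higher were 0 of the 22 genes of 5000 bases or more, beside 1.98% (5000 to 10000 bases) and 4.55% (longer) of all genes. The 12 genes of 10000 bases or more had median log2 fold changes of 0.276 in LV and 0.329 in 4V ChP. Those under 2000 bases had 0.423 and 0.369. In 4V ChP, 1 of these 12 long genes was called higher (8.33%, beside 6.31% of all genes of that length). The correlation of log10 length with log2 fold change was -0.213 across the 85 genes in LV and -0.138 across the 87 in 4V ChP, beside -0.013 and 0.023 across all genes, and the part of length was not tested.

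**Figure D2:**
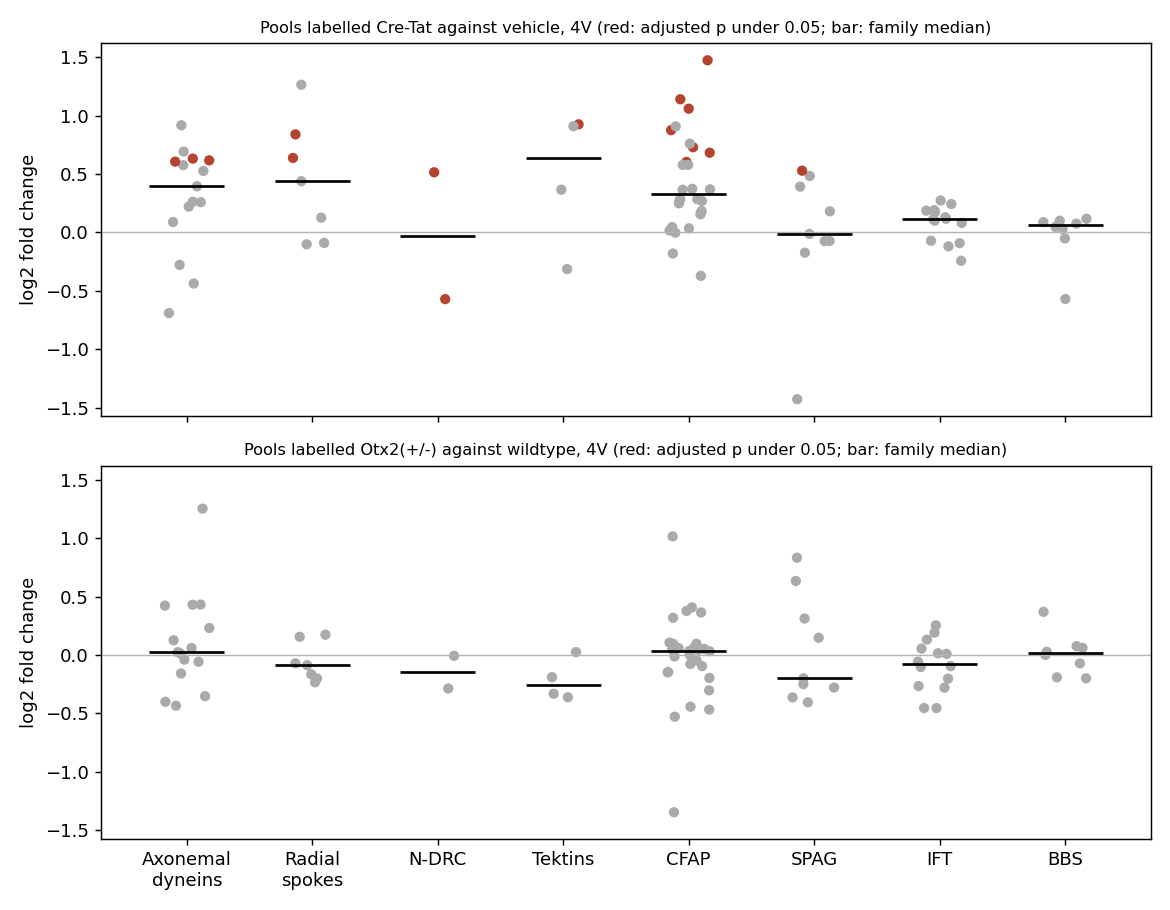
Log2 fold change of each tested gene by family for pools labelled Cre-Tat against vehicle and for Otx2(+/-) against wildtype, both in 4V ChP. The bar is the family median. Dyneins, spoke proteins, tektins and CFAPs lie mostly above 0 with Cre-Tat, the IFT and BBS medians lie nearer 0, and the Otx2(+/-) values centre on 0.

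Grouped by place in the cilium, proteins of the doublet lumen held the most calls. These inner proteins bind the inside of the doublet wall, and the grouping was made with the values known, so it carries no test. Of 10 tested in LV ChP, 5 were higher (2.21% of all genes were), with log2 fold changes from 0.69 to 0.961, and the 10 together ran from 0.215 to 0.961. In 4V ChP, 6 of 11 were higher (5.70% of all genes were), with log2 fold changes from 0.529 to 1.06, while the 11 ran from -0.314 upward with 2 below 0.

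Cfap161, a doublet inner protein, had 11.96 and 8.51 CPM in vehicle LV pools and 18.3 and 21.0 CPM in pools labelled Cre-Tat. In 4V ChP it had 17.8 and 13.3 against 30.5 and 26.7 CPM. Groups did not overlap in either ventricle, and the log2 fold changes were 0.96 ± 0.20 (SE, n = 2 pools per group, edgeR adjusted p = 0.017) and 0.88 ± 0.17 (edgeR adjusted p = 0.00291). Cfap53, an inner protein also needed for left-right patterning, had 8.96 and 10.5 against 18.1 and 15.6 CPM in LV ChP. Its 4V values were 7.28 and 6.81 against 13.4 and 15.9 CPM. Both ventricles again showed separate groups, with log2 fold changes of 0.82 ± 0.19 (edgeR adjusted p = 0.0269) and 1.06 ± 0.19 (edgeR adjusted p = 0.00119).

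Cfap45 lines the doublet near Cfap52 and was expressed at 36.0 and 33.2 CPM with vehicle and at 50.9 and 59.0 CPM with Cre-Tat in LV ChP. The 4V pools held 29.3 and 25.7 against 46.0 and 44.9 CPM. The rise was 0.69 ± 0.16 on the log2 scale in LV (edgeR adjusted p = 0.0333) and 0.73 ± 0.14 in 4V ChP (edgeR adjusted p = 0.00238). Tekt4 encodes a tektin, a filament protein of the doublet wall, and had 9.15 and 7.76 against 13.4 and 15.5 CPM in LV ChP. In 4V ChP, Tekt4 had 5.95 and 6.53 against 12.2 and 11.3 CPM. Its log2 fold changes were 0.79 ± 0.19 (edgeR adjusted p = 0.0384) and 0.93 ± 0.20 (edgeR adjusted p = 0.00481), and every pool labelled Cre-Tat lay above every vehicle pool of its ventricle.

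Spag8, an inner protein of the doublet despite its sperm name, had 11.7 and 9.17 against 16.7 and 19.2 CPM in LV ChP. The 4V pools had 16.1 and 14.1 against 21.7 and 21.7 CPM. Its log2 fold change was 0.81 ± 0.19 in LV (edgeR adjusted p = 0.0332) and 0.53 ± 0.17 in 4V ChP (edgeR adjusted p = 0.0484), and the 4V call was lost when any 1 pool was left out. Cfap126 (Flattop) passed in 4V ChP alone, with 28.1 and 30.001 against 36.8 and 51.1 CPM and a log2 fold change of 0.60 ± 0.16 (edgeR adjusted p = 0.0191). Tekt1, the most abundant tektin, had 92.6 and 88.4 against 126 and 136 CPM in LV ChP without passing the test (log2 fold change 0.56, edgeR adjusted p = 0.0759).

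**Figure D3:**
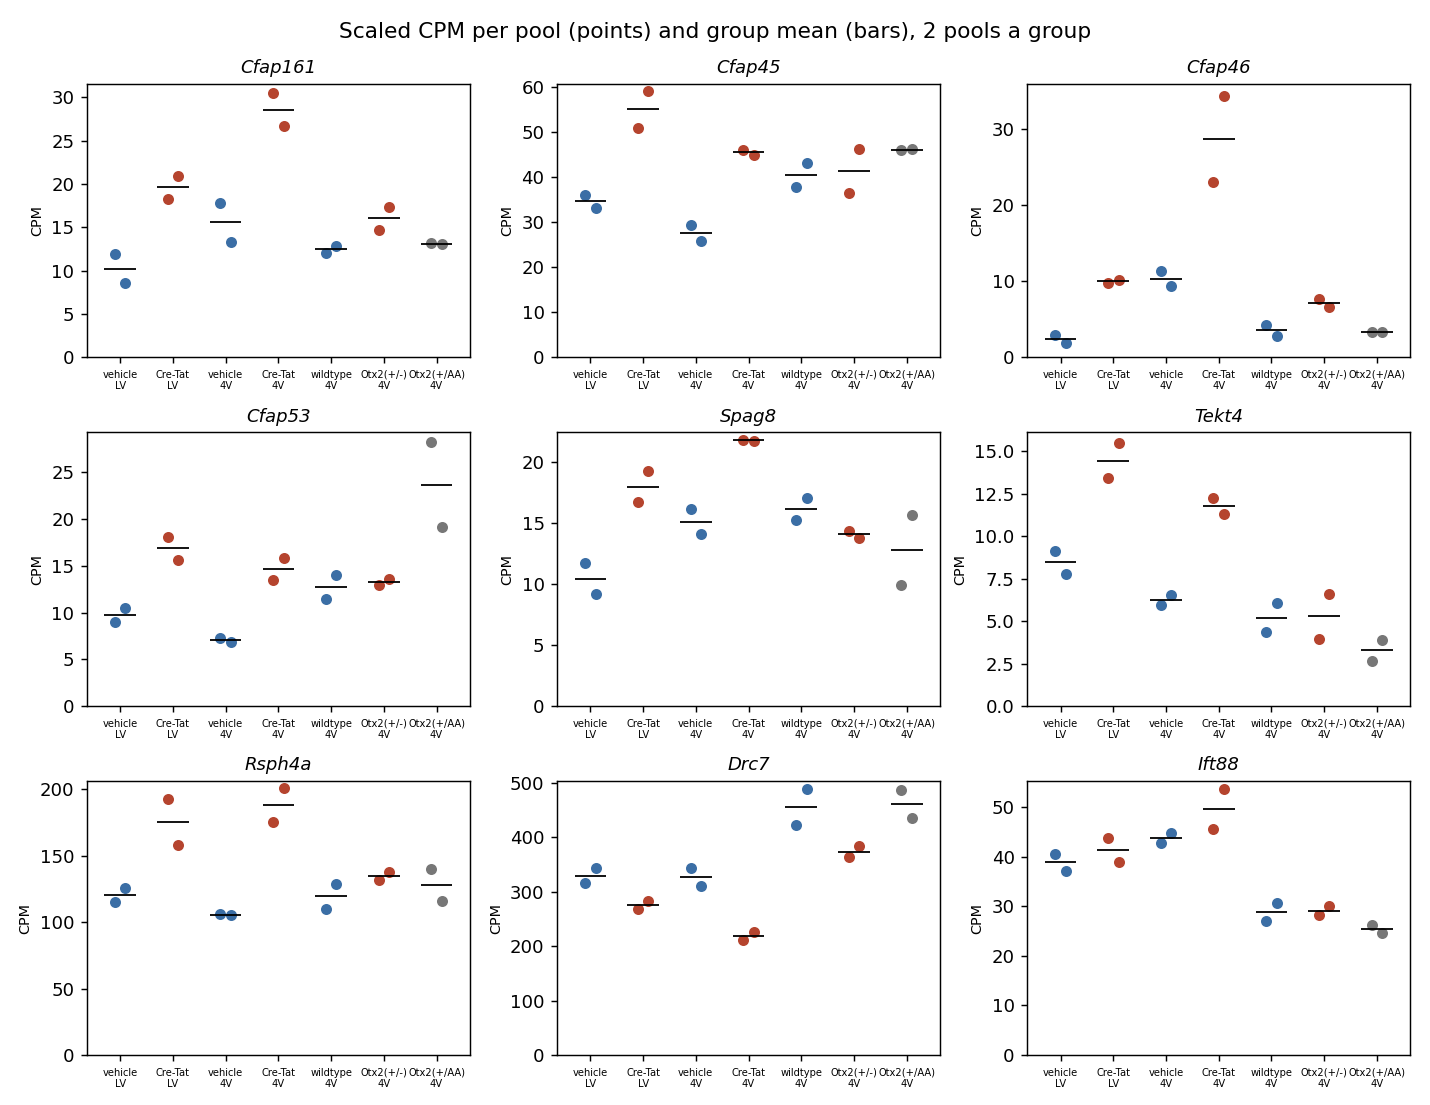
Level in CPM of 9 genes in each of the 14 pools, 1 point per pool, grouped by ventricle, treatment and genotype. Cfap161, Cfap45, Cfap46, Cfap53, Spag8 and Tekt4 are higher in every pool labelled Cre-Tat than in the vehicle pools of the same ventricle, Drc7 is lower, and Ift88 overlaps in LV ChP.

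The promoters of these genes were read from RefSeq (GRCm38.p6) because many ciliary promoters carry an X-box, the site bound by RFX transcription factors. The 120 bases before the annotated start are given for the 4 genes called in both ventricles whose window held an X-box or its core GTTGCC on either strand, with those letters in capitals, from chr7:83794840-83794959 (minus strand) for Cfap161, chr1:172521010-172521129 (plus) for Cfap45, chr7:139683816-139683935 (minus) for Cfap46 and chr17:25471470-25471589 (plus) for Tekt4.
Cfap161: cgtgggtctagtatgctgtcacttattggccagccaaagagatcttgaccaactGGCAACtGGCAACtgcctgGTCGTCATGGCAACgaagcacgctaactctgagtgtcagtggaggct
Cfap45: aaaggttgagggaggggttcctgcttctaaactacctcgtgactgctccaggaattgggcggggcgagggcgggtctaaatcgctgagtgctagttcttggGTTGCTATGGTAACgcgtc
Cfap46: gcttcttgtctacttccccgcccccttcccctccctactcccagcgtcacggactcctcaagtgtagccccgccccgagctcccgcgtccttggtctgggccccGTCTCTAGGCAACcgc
Tekt4: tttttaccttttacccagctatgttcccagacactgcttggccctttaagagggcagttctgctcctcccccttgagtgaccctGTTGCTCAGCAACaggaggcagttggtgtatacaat

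In these windows the capitals begin 66 bases before the start in Cfap161, 19 in Cfap45, 16 in Cfap46 and 36 in Tekt4. The window of Spag8 held neither pattern, and none was found for Cfap53 by symbol. The printed windows of Cfap45 and Tekt4 lie wholly inside the genes as GENCODE draws them (chr1:172520801-172545870 and chr17:25454615-25476602), that of Cfap161 overlaps its gene by 41 bases and that of Cfap46 by 2. Over the 250 bases before the start, the full X-box matched in 30 of 87 windows of the 79 genes with one (34.5%), beside 8.36% of all 32851 windows, and its letters were set after the windows of Cfap45 and Tekt4 had been read. GTTGCC, which is part of many X-boxes, was in 26.4% of the genes' windows and 10.4% of all windows. By family, the full X-box was in 4 of 19 IFT and BBS windows (21.1%) and in 26 of 68 of the others (38.2%), and it was in 5 of 14 windows (35.7%) of the genes called higher with Cre-Tat. The forkhead letters GTAAACA were in 4.60% of the genes' windows and 3.17% of all, and the bicoid-type letters TAATCC, the kind of site that OTX proteins bind, were in 3.45% and 6.25%. A match is a run of letters and shows no binding.

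Cfap46 had the largest fold change of the genes called. It encodes a protein of the C1d projection of the central pair, and its gene lies at chr7:139600951-139683817 on the minus strand. Vehicle LV pools held 2.95 and 1.91 CPM and pools labelled Cre-Tat held 9.75 and 10.1 CPM. In 4V ChP the values were 11.3 and 9.29 against 23.0 and 34.3 CPM. The lowest Cre-Tat pool was thus over 3 times the highest vehicle pool in LV ChP, and the log2 fold changes were 2.05 ± 0.26 (4.14-fold, edgeR adjusted p = 0.000546) in LV and 1.47 ± 0.20 in 4V ChP (edgeR adjusted p = 9.3e-05). Both calls held when each pool was left out in turn. The counted transcript Cfap46-205 is annotated as a target of nonsense-mediated decay, and the protein-coding Cfap46-202 held nearly the same counts, with 2.96 and 1.91 against 9.75 and 10.1 CPM in LV ChP, so the files do not tell these 2 transcripts apart.

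The other C1d genes differed from it. Cfap221 was higher in 4V ChP, with 2.50 and 1.84 against 4.05 and 5.59 CPM (log2 fold change 1.14 ± 0.31, edgeR adjusted p = 0.0224). In LV ChP it had 3.05 and 2.82 against 3.88 and 4.86 CPM and did not pass. Cfap54, the most abundant of them, had 263 and 208 against 218 and 210 CPM in LV ChP and 303 and 310 against 268 and 350 CPM in 4V ChP, and its groups overlapped in both. Cfap74 had 77.4 and 69.6 CPM in vehicle 4V pools and 49.8 and 63.4 CPM in those labelled Cre-Tat, which did not pass at a log2 fold change of -0.37 (edgeR adjusted p = 0.122). Of the 4 C1d genes, 1 was called in LV and 2 in 4V ChP.

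Of the radial spoke genes, Rsph1 passed in LV ChP, and Rsph4a and Rsph10b passed in 4V ChP. Rsph1 had 49.4 and 43.9 against 68.5 and 82.1 CPM in LV ChP (log2 fold change 0.71 ± 0.17, edgeR adjusted p = 0.0312). In 4V ChP it had 54.6 and 45.6 against 72.0 and 63.5 CPM, groups that did not overlap although the test was missed (0.44, edgeR adjusted p = 0.0583). Rsph4a had 106 and 105 against 175 and 201 CPM in 4V ChP, a rise of 0.84 ± 0.13 (edgeR adjusted p = 0.000429) that held with any pool left out. The LV values of Rsph4a were 115 and 126 against 193 and 158 CPM (0.56, edgeR adjusted p = 0.0882). Rsph10b rose in 4V ChP from 26.4 and 30.3 to 38.3 and 49.3 CPM (0.64 ± 0.15, edgeR adjusted p = 0.0108), and 13.31% of its transcript overlaps Pms2 and Gm42421 on the same strand. Rsph9, the most abundant spoke gene, had overlapping groups, with 113 and 113 against 96.6 and 133 CPM in LV ChP.

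The nexin-dynein regulatory complex held the only one of the 95 genes called lower with Cre-Tat in the main edgeR test. Drc7 had 343 and 310 CPM in vehicle 4V pools and 212 and 226 CPM in those labelled Cre-Tat, so that its log2 fold change was -0.57 ± 0.14 (edgeR adjusted p = 0.0115). In LV ChP its groups were also separate, at 315 and 344 against 269 and 283 CPM, without passing (-0.23, edgeR adjusted p = 0.607). The 4V call was lost when vehicle pool 1 was left out (-0.48, edgeR adjusted p = 0.203) and when pools were scaled by total counts. Drc3, of the same complex, went the other way in 4V ChP, from 69.2 and 67.3 to 94.8 and 99.3 CPM (0.52 ± 0.13, edgeR adjusted p = 0.015).

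With edgeR, 3 of 15 tested dynein arm genes were higher in 4V ChP, beside 5.70% of all genes. In LV ChP 0 of 15 passed, which is near the 2.21% of all genes called higher and 1.03% called lower. There 5 had an unadjusted p under 0.05, as did 2126 of all 15002 genes, and DESeq2 called 1 (537 of all 15002 genes). Dnaic2, an outer arm intermediate chain, had 42.0 and 35.2 against 61.5 and 56.5 CPM in 4V ChP (0.62 ± 0.14, edgeR adjusted p = 0.00803). Its LV pools were also apart, with 34.4 and 35.5 against 48.1 and 56.4 CPM (0.60, edgeR adjusted p = 0.0637). For Dnali1, of the inner arm, the 4V values were 43.0 and 37.7 against 57.0 and 65.5 CPM (0.61 ± 0.14, edgeR adjusted p = 0.00827). The outer arm heavy chain Dnah11 had 182 and 183 against 237 and 327 CPM (0.63 ± 0.15, edgeR adjusted p = 0.0117), and this call held only without Cre-Tat pool 1 among the fits that left out a pool. Dnah9, another outer arm heavy chain, had overlapping 4V groups, with 236 and 245 against 235 and 323 CPM. The family medians were close in both ventricles, 0.361 in LV and 0.396 in 4V ChP.

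Of the other CFAP genes, Cfap97d2 was the last to pass in 4V ChP, with 7.35 and 5.43 against 10.5 and 10.1 CPM (0.68 ± 0.21, edgeR adjusted p = 0.0464). Spag4, a gene of the nuclear envelope family of SUN proteins, lay just outside the threshold there at 2.21 and 1.56 against 0.648 and 0.748 CPM (edgeR adjusted p = 0.0501). SPAG genes as a family centred near 0, with medians of -0.01 in LV and -0.01 in 4V ChP.

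No gene of ciliary transport among the 95 passed, beside 3.24% of all genes in LV and 10.7% in 4V ChP. Log2 fold changes of the 14 IFT genes ran from -0.26 to 0.31 in LV ChP and from -0.24 to 0.27 in 4V ChP. Ift88, a core subunit of the IFT-B complex, had 40.6 and 37.2 CPM with vehicle and 43.8 and 39.0 CPM with Cre-Tat in LV ChP, where the groups overlapped, and 42.8 and 44.7 against 45.5 and 53.8 CPM in 4V ChP. Ift122, of the IFT-A complex that serves return transport, had 86.4 and 95.8 against 96.4 and 98.0 CPM in 4V ChP. The widest differences among the 8 BBS genes were those of Bbs10, a chaperonin-like gene needed to assemble the BBSome, with 16.5 and 13.7 against 10.9 and 9.27 CPM in LV ChP and 15.4 and 12.7 against 10.2 and 8.73 CPM in 4V ChP. Its groups did not overlap, but neither value passed (edgeR adjusted p = 0.158 and 0.0625).

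The ventricles were compared with each other on these fold changes. Of the 85 genes tested in both, 61 lay above 0 in both, 16 below 0 in both and 8 on opposite sides, and 71.8% lay above 0 in both, beside 36.6% of the 14284 genes tested in both. Both ventricles come from the same mice, so the shares are a description. Cfap161, Cfap45, Cfap46, Cfap53, Spag8 and Tekt4 were higher in both, which is 85.7% of the genes called higher in LV and 40.0% of those in 4V ChP. The interaction of treatment with ventricle was tested on 88 genes and called 0, beside 0.00642% of all 15565 genes, with 0 at an unadjusted p under 0.05 by edgeR (2.67% of all genes) and 0 called by DESeq2. With a block for each pool number within treatment, a fit chosen after seeing the data, 0 were called too. Genes called in 1 ventricle only were therefore not shown to differ between ventricles.

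**Figure D4:**
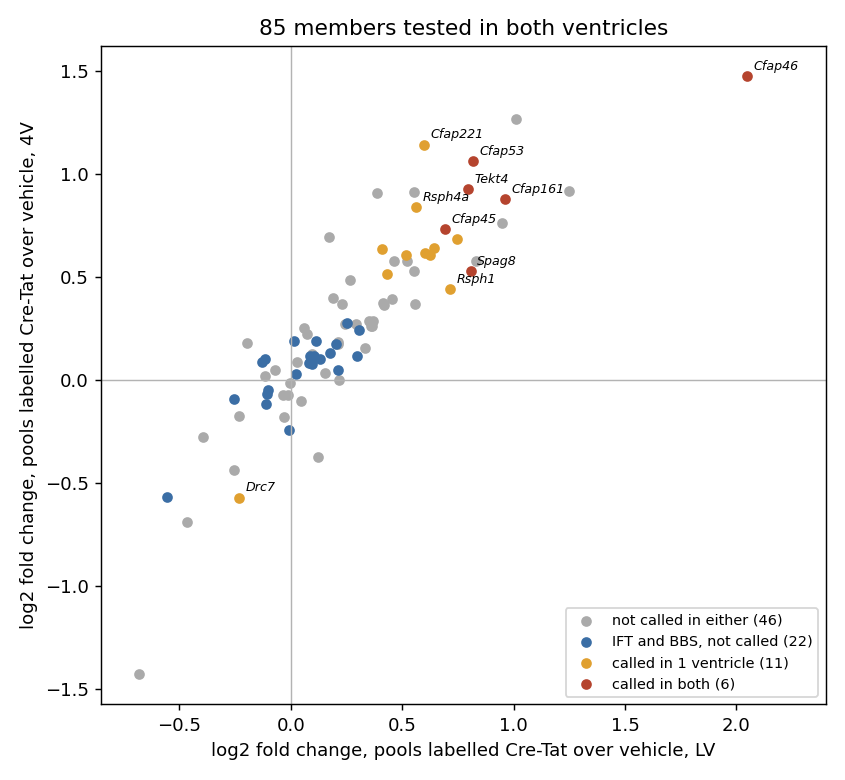
Log2 fold change of Cre-Tat against vehicle in 4V ChP against that in LV ChP, 1 point for each of the 85 genes tested in both, coloured by where it was called. Most points (61) lie above 0 on both axes, with Cfap46 farthest out.

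Genes of the same pathways under other names were read from lists. Of 27 tested genes for dynein assembly and docking, the axonemal ruler and the central pair, 5 were higher in LV and 8 in 4V ChP, and 0 were lower (medians 0.36 and 0.33). Of all genes, 2.21% were higher and 1.03% lower in LV, and 5.70% and 4.98% in 4V ChP. Ccdc40, which with Ccdc39 forms the ruler that spaces the spokes and inner arms, moved most, from 4.45 and 4.94 to 30.8 and 34.8 CPM in LV ChP (log2 fold change 2.83 ± 0.19, edgeR adjusted p = 7.44e-06) and from 8.38 and 7.82 to 44.5 and 53.6 CPM in 4V ChP (2.60 ± 0.17, edgeR adjusted p = 1.11e-08). Its partner Ccdc39 did not pass, with log2 fold changes of 0.17 and 0.16. Of the Ccdc39 transcript, 34.22% overlaps Ttc14 on the opposite strand, so its counts may include Ttc14 reads if strand was not used in counting. Mns1, Ak7, Armc4 and Dynlrb2 were also higher in both ventricles, by 0.82, 0.87, 0.88 and 0.84 in LV and 0.72, 0.79, 0.63 and 0.90 in 4V ChP, and 54.13% of the Mns1 transcript overlaps Tex9 on the opposite strand.

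In the list of IFT motors and IFT or BBS proteins under other names, 2 of 23 had an unadjusted p under 0.05 in LV ChP. So did 2126 of all 15002 genes. Beside edgeR shares of 3.24% of all genes in LV and 10.7% in 4V ChP, 0 of the 23 were called in LV ChP (0 by DESeq2 as well) and 1 was called in 4V ChP. That gene was Traf3ip1 (Ift54), with 22.3 and 24.1 against 34.1 and 45.6 CPM (0.79, edgeR adjusted p = 0.00327). Of 20 transition zone and ciliary membrane genes, 0 were higher and only Tmem237 was lower in each ventricle, from 520 and 517 to 271 and 346 CPM in LV and from 428 and 378 to 215 and 207 CPM in 4V ChP.

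Among regulators of multiciliated cells, Foxj1, the forkhead factor that switches on the motile cilia programme, had 77.6 and 86.7 against 133 and 148 CPM in LV ChP (0.80 ± 0.16, edgeR adjusted p = 0.0152). In 4V ChP it had 101 and 85.03 against 178 and 187 CPM (0.98 ± 0.14, edgeR adjusted p = 0.00013). The tubulin gene Tubb4b of the same list was higher in both as well. Gmnc (Gemc1), which acts early in the commitment to multiple cilia, went down in 4V ChP from 161 and 190 to 74.8 and 93.6 CPM (-1.05 ± 0.15, edgeR adjusted p = 0.00011). Rfx2 and Rfx3 did not pass in either ventricle (Rfx2 0.50 and 0.41, Rfx3 -0.62 and -0.38), and Mcidas had no count in 13 of the 14 pools.

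Vehicle pools of LV and 4V ChP were compared next, for differences between the ventricles without Cre-Tat. Of 86 genes tested, 14 were lower and 0 higher in LV ChP, which is 16.3%, beside 7.44% of all 14561 genes (3.98% lower and 3.46% higher). The count was 5 without vehicle LV pool 2, 23 without vehicle LV pool 1, 5 without vehicle 4V pool 1 and 4 without vehicle 4V pool 2. Cfap46, Cfap65, Dnah6 and Cfap74 were called in each of these, and the genes that missed the threshold had edgeR adjusted p values of 0.0656 to 0.283 without vehicle LV pool 2, 0.054 to 0.0976 without vehicle 4V pool 1 and 0.104 to 0.304 without vehicle 4V pool 2. With the pool number as a block, 20 were lower, and 2288 of all 14561 genes were called. The vehicle 4V pools are also the controls of the 4V comparison above.

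Cfap46 had 2.95 and 1.91 CPM in LV and 11.3 and 9.29 CPM in 4V ChP, a log2 fold change of -2.11 ± 0.27 (edgeR adjusted p = 0.00031). Cfap74 had 37.1 and 22.3 against 77.4 and 69.6 CPM (-1.33 ± 0.19, edgeR adjusted p = 0.000975). These C1d genes were thus both below their 4V levels in every LV pool. Cfap65 had 101 and 81.9 against 151 and 172 CPM (-0.85 ± 0.14, edgeR adjusted p = 0.002). The heavy chain Dnah6 had 160 and 111 against 242 and 275 CPM (-0.96 ± 0.16, edgeR adjusted p = 0.00298).

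Of the 15 tested dynein subunits, 6 were lower (3.98% of all genes were), all of them heavy chains: Dnah2, Dnah6, Dnah7a, Dnah7b, Dnah9 and Dnah11, with log2 fold changes of -0.47 to -0.96. Dnah7a and Dnah7b held nearly the same counts (16.8 and 8.72 against 23.3 and 24.02 CPM for Dnah7a, 16.9 and 8.72 against 23.4 and 24.02 for Dnah7b), so they count as 1 uncertain observation of near-identical genes. Cfap43 and Cfap44, which tether an inner dynein arm, were lower by 0.55 and 0.90 on the log2 scale, and Cfap44 had 155 and 82.9 against 214 and 221 CPM, with vehicle LV pool 2 the lowest of the 4. Ift172, the largest IFT-B protein, was the only transport gene called, with 61.2 and 63.2 against 86.2 and 89.7 CPM (-0.53 ± 0.11, edgeR adjusted p = 0.0128). Cfap69 and Spag9 made up the rest, with log2 fold changes of -0.48 each. From the lists of other names, Ccdc40, Ak7, Hydin, Armc4, Tulp3, Dync2h1 and Gmnc were lower in LV ChP as well, with log2 fold changes from -0.63 for Dync2h1 to -1.50 for Gmnc, and 0 genes of the 4 pathway lists were higher.

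The genes called lower in LV ChP were long. Their counted transcripts had a median of 6961.5 bases, against 2872.5 bases for the genes tested. All 10 tested genes of 5000 to 10000 bases lay below 0, with a median log2 fold change of -0.50, against -0.05 for the 2452 genes of that length. All 12 of 10000 bases or more lay below 0 as well, with a median of -0.52, against -0.19 for 304 genes. Below 2000 bases the median of 26 genes was -0.03 and 0 were called. Across the 86 genes the correlation of log10 length with log2 fold change was -0.425, and across all genes it was 0.034. These values come from the same 4 libraries, and the part of transcript length, or of RNA quality that may go with it, was not tested.

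**Figure D5:**
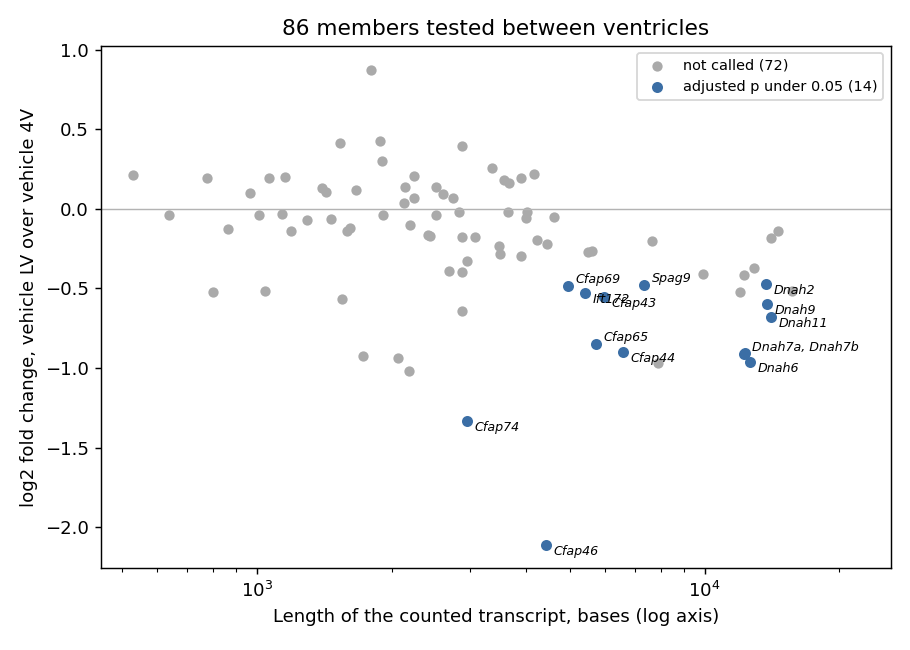
Log2 fold change of vehicle LV against vehicle 4V ChP against the length of the counted transcript in bases on a log axis, with the 86 tested genes marked by whether they were called lower. All 22 genes of 5000 bases or more lie below 0, and shorter genes lie on both sides.

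In the constitutive model the genes lay on both sides of 0. Between Otx2(+/-) and wildtype, 0 of 87 tested genes passed, beside 3.53% of all 14573 genes. DESeq2 called 0 as well, and 21 had an unadjusted p under 0.05 (18.5% of all genes did), of which 11 were higher and 10 lower. The median log2 fold change was -0.01. Each time a pool was left out, 1 to 3 genes passed. The correlation of log10 transcript length with log2 fold change was 0.301 across the 87 genes and 0.17 across all genes. Of the 8 epithelial markers 2 were called lower in Otx2(+/-) pools, and of the 6 macrophage markers 1 was called higher.

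The genes that led with Cre-Tat differed among themselves here. Cfap46 had 4.24 and 2.81 CPM in wildtype and 7.67 and 6.61 CPM in Otx2(+/-) pools, which do not overlap, at a log2 fold change of 1.01 (edgeR adjusted p = 0.0641). Cfap161 had 12.1 and 12.9 against 14.7 and 17.4 CPM. Cfap45 overlapped, with 37.8 and 43.1 against 36.5 and 46.2 CPM, and so did Cfap53, Tekt4 and Foxj1. Drc7 had 422 and 489 against 363 and 384 CPM. Cfap61, a spoke-associated gene, came closest to a fall, with 36.5 and 35.6 against 24.3 and 25.6 CPM (-0.53, edgeR adjusted p = 0.0544). Of the pathway lists, 1 gene passed, Ak8, an adenylate kinase, which was lower in Otx2(+/-) pools (-0.81, edgeR adjusted p = 0.0401).

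Pools labelled Otx2(+/AA) were set against the same wildtype pools. Of 87 genes tested, 0 passed with edgeR, beside 0.345% of all 14494 genes, while DESeq2 called 2, and 8 had an unadjusted p under 0.05, as did 8.91% of all genes. The median was 0.01. Cfap53 had 11.5 and 14.05 CPM in wildtype and 28.2 and 19.1 CPM in Otx2(+/AA) pools (0.89, edgeR adjusted p = 0.087).

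Otx2(+/-) and Otx2(+/AA) pools were also compared with each other, and 2 of 87 genes passed, beside 2.70% of all 14578 genes. Cfap46 was higher in Otx2(+/-) pools, with 7.67 and 6.61 against 3.33 and 3.25 CPM (1.11, edgeR adjusted p = 0.0177). Cfap53 was lower, with 13.0 and 13.6 against 28.2 and 19.1 CPM (-0.84, edgeR adjusted p = 0.0412), and this call was lost without Otx2(+/AA) pool 1.

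Whether the 4V difference with Cre-Tat exceeded that with Otx2(+/-) was tested as an interaction over 8 pools. Of 87 genes, 0 passed with edgeR, beside 1.64% of all 15327 genes, and DESeq2 called 4 (377 of all genes). At an unadjusted p under 0.05 there were 21, each with the larger value in the Cre-Tat contrast, beside 6.36% of all genes in that direction. The median was 0.203, and the nearest to the threshold were Cfap58 (2.24, edgeR adjusted p = 0.0515), Cfap53 (0.99, edgeR adjusted p = 0.0696) and Dnali1 (0.75, edgeR adjusted p = 0.0813). In this interaction the correlation of log10 length with the log2 difference was -0.341 across the 87 genes and -0.083 across all genes. Of the pathway lists, 5 genes passed: Tubb4b (1.32, edgeR adjusted p = 0.00396), Ccdc40 (1.74, edgeR adjusted p = 0.0114) and Foxj1 (1.12, edgeR adjusted p = 0.0148) had the larger value in the Cre-Tat contrast, and Gmnc (-1.42, edgeR adjusted p = 0.0128) and Tmem237 (-0.91, edgeR adjusted p = 0.0199) the smaller. The models differ in strain and sequencing run, which cannot be told apart from the model in this test.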

How the data were processed

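RNA of 14 ChP pools had been sequenced as 50 bp reads. The authors deposited counts, whole numbers of reads per Ensembl transcript without normalization, in 22 files. Per the submitters' processing notes, bcl2fastq 1.8.4, Bowtie 0.12.9, SAMtools, HTSeq 0.5.3, DESeq 1.8.3 and the mm10 build were used, and which annotation and strand setting were counted is not given in the sources used here. The labels describe ribosomal depletion and a strand-specific kit, the methods PolyA+ selection. Both runs of a conditional pool were summed, and files were joined to samples by library number. Of 95533 transcripts, 82807 (89.46% of counts) matched GENCODE vM21, and the transcript with the largest count over all files stood for its gene. All 33984 genes entered each fit.

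The main test was edgeR 4.0.16 (R 4.3.3) with filterByExpr, TMM factors, the quasi-likelihood test and Benjamini-Hochberg adjustment over all genes tested at 0.05, without covariates. It was tested on simulated data. Fold changes are log2 with their SE. DESeq2 1.42.0, other scalings, no filter, sums over transcripts, wider fits, blocks, files as attached and leaving out pools were alternatives. Python 3.11.15, pandas 2.3.3, NumPy 2.4.6 and matplotlib 3.10.9 served for tables and plots. Totals set the counting error only, and 2 pools per group limit precision. Genes were named if called (the 12 with the smallest adjusted p per direction, with further called genes under their families), if among the 3 highest per kilobase in a family, if called in a pathway list (at most 6 per comparison), or as Otx2, Foxj1, Rfx2, Rfx3 and Mcidas. Ift88, Ift122, Bbs10 and other genes shown beside these were added after their values were seen. The genes, lists and roles were chosen with earlier results of these data known. Other marker lists gave, with Cre-Tat in LV and 4V ChP, 2 and 3 astrocyte genes higher and 1 lower in each, 1 and 1 oligodendrocyte genes higher, 1 neuron gene higher in LV and 1 lower in 4V, and 0 endothelial or mural genes.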

Additional observations from a re-analysis of the deposited data

How the results depend on the processing

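The number of the genes called depended on the processing more than their direction did. With Cre-Tat in LV ChP (7 called), it was 12 without the filter on low counts and 11 with all groups of the run in 1 fit. Over all genes these settings called 874 of 21793 and 595 of 15565. The number was 3 with sums over transcripts and 50 with files as attached, beside 441 of 15479 and 6709 of 14956 of all genes. With Cre-Tat in 4V ChP (16), it was 28 with total counts, 25 without the filter and 60 as attached. Over all genes these settings called 1742 of 14550, 1900 of 21709 and 8742 of 14858. Between vehicle LV and 4V pools (14), it was 8 with all groups in 1 fit, 6 with sums over transcripts and 41 as attached. All-gene counts there were 717 of 15565, 813 of 15096 and 4718 of 14454. For Otx2(+/-) against wildtype (0), total counts gave 1 (531 of all 14573 genes) and all groups in 1 fit gave 2 (595 of 14855). For Otx2(+/AA) against wildtype (0), DESeq2 gave 2 (122 of all 14494 genes) and no filter gave 3 (390 of 23345). Between Otx2(+/-) and Otx2(+/AA) (2), sums over transcripts gave 1 (248 of all 15104 genes). The interaction of treatment with ventricle (0) gave 40 as attached (5258 of all 15380 genes). That of knockdown with model (0) gave 4 with DESeq2 (377 of all 15327 genes) and 1 with total counts. It gave 6 without the filter (627 of 24482) and 37 as attached (4688 of 15421). Leaving out 1 pool gave 2 to 10 in LV, 12 to 19 in 4V, 1 to 3 for Otx2(+/-), 1 to 2 for Otx2(+/AA), 3 to 4 between these, 4 to 23 between ventricles, 0 to 0 for treatment by ventricle and 0 to 1 for knockdown by model, where a lone pool is assumed to vary like the others. With total counts the median log2 fold change over all genes was 0.174 in LV (0.004 with TMM), 0.147 in 4V (0.006), 0.114 for Otx2(+/AA) (-0.006), 0.123 for knockdown by model (0.007) and -0.185 between ventricles (0.006), where 252 of 1474 calls were then higher, against 504 of 1083.

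The direction turned only with files as attached. In LV ChP it then was -0.73 for Cfap161, -0.13 for Rsph1, -1.46 for Cfap46 and -0.45 for Spag8. In 4V ChP it was -0.56 for Cfap161, -1.26 for Dnah11, 0.28 for Drc7, -0.085 for Dnaic2, -0.14 for Cfap221, -0.24 for Rsph4a, -2.04 for Cfap46, -0.10 for Drc3, -0.41 for Spag8, -0.63 for Rsph10b and -0.57 for Cfap97d2. Joining by library number is the construction that differs.

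Pool numbers are shared between groups, with 2 pairs each, and the labels do not say that a number marks a shared litter or day, nor that LV and 4V pools of one number held the same mice. With the pool number as a replicate block, 38 of 87 genes were called in 4V and 16 of 87 for Otx2(+/-). Over all genes the block called 3114 of 14550 and 2539 of 14573 there. It called 4 for Otx2(+/AA) (549 of all 14494 genes), 4 between Otx2(+/-) and Otx2(+/AA), and 9 in LV (622 of 15002). Between ventricles it called 20 (2288 of 14561), and for knockdown by model 0 (246 of 15327). Same-numbered pools deviated together weakly (correlation of deviations 0.15 in 4V, 0.359 for Otx2(+/-), 0.077 for Otx2(+/AA), 0.08 between these, and 0.074 and 0.064 between ventricles in vehicle and Cre-Tat pools). In LV ChP the correlation was -0.128, and a block with crossed numbers, chosen after seeing the data, called 16 (1012 of all 15002 genes).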

Other observations

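Levels in vehicle 4V pools of the conditional model and wildtype 4V pools of the constitutive model can be set side by side, although strain, injection and sequencing run cannot be told apart between them. Among 71 of the genes with a mean over 5 CPM, the median log2 ratio of vehicle to wildtype was 0.279, beside -0.037 for 10254 genes. Both vehicle pools were higher for 39 of the 71, both lower for 16, and overlapped with wildtype for 16. How many of all genes separate in this way was not counted. The split is therefore a description and does not set these genes apart. For the 8 genes of 10000 bases or more the median was 1.438, beside 0.377 for 246 genes of that length. Cfap54 was 3.92 times, Dnah8 3.56 times, Cfap43 3.07 times and Dnah1 2.88 times the wildtype level. At the other end, Cfap53 stood at 0.569, Spag7 at 0.634, Cfap45 at 0.683 and Drc7 at 0.717 of it. These ratios have no test.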
